A study of Homo sapiens with 24 samples.

Results

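PANC1, a line derived from a ductal adenocarcinoma of the pancreas, was examined in its control state, without knockdown, and set beside 3 other tumour lines of the same study. The members are the 3 PANC1 libraries made after transfection with control siRNA (siC), out of 24 libraries in all, and they were chosen by their labels. The comparison groups are the siC libraries of A549 (lung adenocarcinoma), ES2 (ovarian carcinoma) and MV3 (melanoma), with 3 libraries each, so that 12 libraries enter. The remaining 12 libraries received a pool of siRNAs against IGF2BP1, an oncofetal RNA-binding protein, and serve here only as a repeat. All 12 libraries compared share the control siRNA as their only treatment, and each tissue is represented by a single line, so that nothing here separates the tissue from the line. PANC1 was harvested 96 h after transfection and the other lines 72 h after it, so line and harvest time cannot be told apart. Each line also has its own deposited table with its own normalisation, so line and table cannot be told apart either.

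The duct cells from which pancreatic carcinoma is thought to arise are epithelial: they are joined by E-cadherin and claudins, carry simple keratins such as KRT19, and depend on transcription factors of the foregut endoderm. Tumour lines can lose these junctions and gain mesenchymal genes such as vimentin and fibronectin under the repressors SNAI, TWIST and ZEB, and many keep only part of either programme. Loss of CDKN2A and SMAD4 is common in pancreatic carcinoma.

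Values are fragments per kilobase of gene, scaled to the reads of the library (FPKM), brought to a common scale across the 4 tables. The common scale gives each library the same median over 8866 protein-coding genes that reached a mean of 1 FPKM in every line. Differences are log2 differences of FPKM + 0.5, PANC1 minus the other line, which understates differences of genes at low levels. They were tested with limma, with p-values adjusted over all 17969 genes tested. A gene was called higher or lower than another line at an adjusted p under 0.05 and a difference of at least 2-fold. Reads assigned to genes numbered 6723908 to 8472851 in the PANC1 libraries, against 3987122 to 4406817 in A549, 6421764 to 7253729 in ES2 and 15572492 to 16077195 in MV3. The share of reads in RN7SL genes, which encode the abundant signal recognition particle RNA, was 10.2% to 15.4% in PANC1 and 3.98% to 9.97% elsewhere. Its part in the results was not tested. The PANC1 replicates also differed more among themselves, with a chi-square per gene of 4.70 to 15.1 between pairs (the highest between replicates 2 and 3), against 1.72 to 3.94 in the other lines.

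Of 11987 protein-coding genes tested, 589 were higher in PANC1 than in each of the 3 other lines, which is 4.91%, and 461 were lower than in each, which is 3.85%. These shares are the background for the gene lists. Of the 589 higher genes, 204 (34.6%) passed the filter only through PANC1, with a mean under 0.5 FPKM over the 9 other libraries, and had to differ. For every gene named here as higher or lower than each line, the PANC1 libraries did not overlap the 9 others. That separation follows largely from the calls, which need a 2-fold difference from each line. It is no further support for them. Against A549 alone, 1449 genes were higher (12.1%) and 1882 lower (15.7%). Against ES2, 1693 were higher (14.1%) and 1733 lower (14.5%), and against MV3, 1871 were higher (15.6%) and 1568 lower (13.1%). The division between higher and lower depended on the scale: 56.1% of the genes that differed from each line were higher on the common scale, 42.8% on the deposited scale and 57.2% on a scale with a common sum. The deposited scale shifts the median difference of all genes by -0.21 against A549, -0.12 against ES2 and -0.17 against MV3, and the common sum shifts it by 0.14 against ES2 and by less than 0.1 against the others. For A549 the share of higher calls was 43.5% on the common scale, 30.3% on the deposited scale and 37.4% with a common sum. For ES2 it was 49.4%, 42.2% and 59.0%, and for MV3 it was 54.4%, 42.5% and 53.8% in the same order. Across these genes the PANC1 levels had a Spearman correlation of 0.763 with A549, 0.756 with ES2 and 0.771 with MV3, whereas ES2 and MV3 had a correlation of 0.869 with each other. These coefficients are descriptive, since genes are not independent replicates.

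The label was checked against markers of the pancreas and of other tissues. KRT19, the keratin that marks pancreatic ducts, was measured at 696, 741 and 611 FPKM in the 3 PANC1 libraries. PDX1, the transcription factor that founds the pancreas and that is then kept in endocrine cells, was at 2.04, 1.59 and 2.02 FPKM, with at most 0.0252 FPKM in any library of the other lines. Its mean over all libraries was under the filter, so it was not tested. SOX9, a duct and progenitor factor, was at 18.9, 22.2 and 19.4 FPKM, a level that overlapped those of ES2. HNF4A had no read in PANC1, and CFTR, the chloride channel of ducts, was at 0.0173 FPKM. None of 14 acinar genes, among them the digestive enzymes PRSS1 and CPA1, passed the filter, and the highest of them in PANC1 was at 0.216 FPKM. The hormones INS and GCG were at 0 in PANC1. The PANC1 libraries thus hold KRT19, SOX9 and PDX1 but have little or none of HNF4A and CFTR. Of 15 duct genes 9 were tested, and KRT19 alone was called higher than in each line. Against A549, 6 of the 9 were lower in PANC1 and 2 higher. The median differences of the 9 were -2.32 against A549, 0.74 against ES2 and 0.77 against MV3. Of 12 markers of blood and endothelium 2 were tested and neither was called. Their summed level was 0.624 to 1.10 FPKM in PANC1, with CD3E and VWF at 0, and 2.55 to 3.73 in A549, 9.08 to 11.8 in ES2 and 0.361 to 0.424 in MV3.

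The genes that set PANC1 apart most strongly were ranked by the smallest of their 3 differences. The first was ALPPL2 (ENSG00000163286, chromosome 2, 232406844 to 232410714, hg38), a placental-like alkaline phosphatase of germ cells. Its neighbour ALPP (chromosome 2, 232378724 to 232382889), the placental alkaline phosphatase, was also among the 15 leading genes. The 2 genes are close copies, so reads could be divided between them, and their transcripts were not compared here. The 250 bases before the RefSeq start of each gene are shown because both were prominent in PANC1 and nearly absent elsewhere. These bases lie before the start and do not show how reads were divided. They come from RefSeq (GRCh38.p14, plus strand), at chr2:232406594-232406843 for ALPPL2, listed there as ALPG, and at chr2:232378501-232378750 for ALPP. Capitals mark bases that differ from the other gene or lie opposite a gap, and lower case marks bases that are shared.
ALPPL2: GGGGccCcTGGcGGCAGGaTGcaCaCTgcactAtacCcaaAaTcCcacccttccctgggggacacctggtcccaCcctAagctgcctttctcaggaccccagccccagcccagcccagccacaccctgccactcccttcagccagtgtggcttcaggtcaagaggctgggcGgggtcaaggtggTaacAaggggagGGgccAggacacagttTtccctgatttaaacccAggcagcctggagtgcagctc
ALPP: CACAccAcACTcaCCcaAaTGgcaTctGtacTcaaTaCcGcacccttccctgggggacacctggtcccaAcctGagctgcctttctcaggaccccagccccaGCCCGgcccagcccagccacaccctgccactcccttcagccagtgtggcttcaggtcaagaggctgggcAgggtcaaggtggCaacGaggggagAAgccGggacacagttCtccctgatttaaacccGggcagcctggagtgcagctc
Of 256 aligned columns 216 were identical (84.4%) and 12 were gaps.

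ALPPL2 was at 105, 111 and 100.4 FPKM in the 3 PANC1 libraries and at 0.154 ± 0.191 in A549, 0 ± 0 in ES2 and 0.00843 ± 0.0146 in MV3 (SD, n = 3). No ES2 library had a read, and MV3 had 1 read in all. The log2 difference was 7.38 ± 0.17 (SE) against A549, and the level was at least 1747-fold higher than 3 reads over the ES2 libraries would give. ALPP was at 14.1, 13.8 and 14.8 FPKM in PANC1 and at most 0.0458 FPKM in any other library. The groups did not overlap for either gene, and since both passed the filter through PANC1 alone they had to differ.

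The other 13 leading genes fall into a few kinds. Carriers of lipids and retinoids were APOE, RBP7, the retinol-binding protein, and CRABP2, which carries retinoic acid to its receptors. APOE was at 95.2, 102 and 89.7 FPKM in PANC1 and at 0.646 ± 0.333 in A549, 0 ± 0 in ES2 and 0.151 ± 0.0883 in MV3 (SD, n = 3), with log2 differences of 6.43, 7.58 and 7.21 against A549, ES2 and MV3. RBP7 was at 24.8, 26.5 and 21.8 FPKM and at most 0.0708 elsewhere. CRABP2 was at 62.8, 114 and 49.9 FPKM, the widest spread among the leading genes, and replicate 2 was the highest; the lowest PANC1 library still lay above the highest other library (1.27 FPKM). The smallest difference of CRABP2 was 5.51 ± 0.41 (SE), against MV3.

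FBXO27 and FBXO2, F-box proteins that recognise glycoproteins for ubiquitination, had means of 148 and 47.3 FPKM in PANC1. Neither had a read in ES2 or MV3, and in A549 their means were 1.31 and 0.971 FPKM. GATA5, a zinc finger factor of endoderm and heart, was at 15.8, 19.4 and 16.9 FPKM in PANC1 against means of 0.0578, 0 and 0 in A549, ES2 and MV3. CHD5, a chromatin remodeller, was at 17.7, 16.9 and 20.4 FPKM and at most 0.19 elsewhere. LXN, which encodes the carboxypeptidase inhibitor latexin, was high in absolute terms, at 268, 245 and 239.6 FPKM in PANC1 and 6.84 ± 0.933 in A549, 5.51 ± 1.47 in ES2 and 6.27 ± 1.29 in MV3 (SD, n = 3), a log2 difference of 5.11 or more. The remaining leading genes were RASL11A, a small RAS-like GTPase, MXRA8 and VWA1, proteins of the matrix and cell surface, PADI2, which converts arginine to citrulline, and ARHGAP4, a GTPase-activating protein. Their PANC1 means were 53.8, 20.6, 75.8, 45.1 and 28.2 FPKM, and the highest mean of any of them in another line was 2.38 FPKM (VWA1 in A549). Of the 15 leading genes, 11 passed the filter only through PANC1 and had to be higher; the other 4 were CRABP2, RASL11A, LXN and VWA1.

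**Figure D1:**
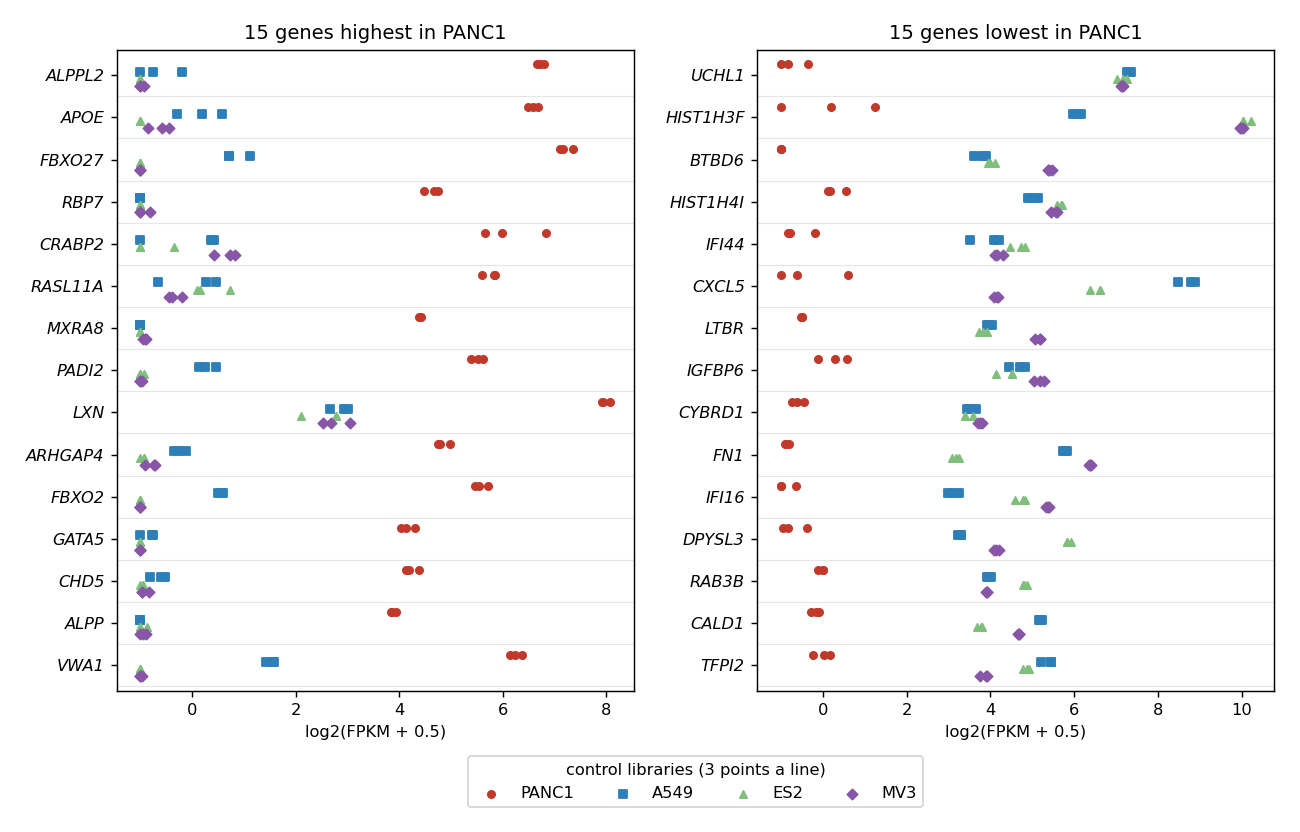
Levels of the 15 leading genes higher (left) and the 15 leading genes lower (right) in PANC1 than in each of A549, ES2 and MV3, as log2(FPKM + 0.5) on the common scale. Genes were ranked by the smallest of their 3 differences. Each point is 1 control library, 3 a line. The PANC1 points lie apart from all others for each gene, which follows from the way the genes were chosen. Many genes sit at the floor of -1 (0 FPKM) on the side where they are low.

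Genes lower in PANC1 than in each other line were led by UCHL1 (ENSG00000154277, chromosome 4, 41256413 to 41268455), a ubiquitin hydrolase of neurons that many tumour lines make. It was at 0, 0.281 and 0.0583 FPKM in PANC1 and at 158 ± 5.77 in A549, 142 ± 11.9 in ES2 and 140.5 ± 2.003 in MV3 (SD, n = 3). PANC1 thus lacked a transcript that the other lines held at closely similar levels, with log2 differences of -8.04, -7.88 and -7.87 against A549, ES2 and MV3 and limma adjusted p-values of at most 1.47e-11. BTBD6 (chromosome 14, 105248533 to 105251093), a BTB domain protein, had no read in any PANC1 library, and its level was at least 228-fold higher in A549, 270.1-fold in ES2 and 725-fold in MV3 than 3 reads over the PANC1 libraries would give. LTBR, the lymphotoxin beta receptor that feeds the alternative NF-kB pathway, was at 0.197, 0.204 and 0.212 FPKM in PANC1 and at 15.2 ± 0.581 in A549, 13.7 ± 0.871 in ES2 and 34.8 ± 1.69 in MV3 (SD, n = 3).

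Matrix and cytoskeleton genes made up a further part of this list. FN1, which encodes fibronectin, was at 0.0358, 0.0740 and 0.0461 FPKM in PANC1 against 54.8 ± 1.87 in A549, 8.52 ± 0.574 in ES2 and 82.5 ± 1.18 in MV3 (SD, n = 3), so that its log2 difference ranged from -7.23 (MV3) to -4.03 (ES2). CALD1, the actin-binding protein caldesmon, was at 0.393, 0.325 and 0.446 FPKM in PANC1 and at least 12.3 FPKM in every other library. TFPI2, an inhibitor of proteases in the matrix, was at 0.524, 0.625 and 0.349 FPKM and at least 13.04 elsewhere. DPYSL3, a cytoskeletal protein of migrating neurons, had a PANC1 mean of 0.117 FPKM against 9.18, 57.4 and 17.1. IGFBP6, a binding protein for insulin-like growth factor, CYBRD1, an iron reductase, and RAB3B, a GTPase of secretory vesicles, had PANC1 means of 0.715, 0.16 and 0.48 FPKM and no mean under 10.5 in another line.

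The innate immune genes IFI44 and IFI16, of which IFI16 encodes a sensor of DNA, and the chemokine CXCL5 were also in this list. CXCL5 was at 0, 1.01 and 0.157 FPKM in PANC1 and at 421 ± 59.8 in A549, 92.9 ± 8.76 in ES2 and 17.2 ± 0.555 in MV3 (SD, n = 3). IFI16 had reads in 1 PANC1 library and was at 8.19, 26.02 and 40.5 FPKM in A549, ES2 and MV3. The histone genes HIST1H3F and HIST1H4I encode core histones of dividing cells. HIST1H4I was at 0.958, 0.594 and 0.616 FPKM in PANC1 and at least 29.1 elsewhere. HIST1H3F was at 0, 1.87 and 0.647 FPKM in PANC1 and its means were 66.5, 1091 and 1014 FPKM in A549, ES2 and MV3, so that the other lines also differed widely among themselves. Histone genes are near-identical copies, and the division of reads among them is uncertain. In PANC1, replicate 2 was the highest for 10 of the 15 leading lower genes, at levels still under those of all other libraries. Over the 441 lower genes with a read in PANC1, replicate 1 was the highest for 100, replicate 2 for 154 and replicate 3 for 187.

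The genes higher than in each line were not spread evenly along the genome. Windows of 20 neighbouring tested genes held a median of 1 such gene, and the highest number was 19, on chromosome 19. Joining all windows with at least 10 gave 3 runs, which were therefore chosen after their values were seen and carry no test of their own. The longest reached from SPINT2 to AKT2 (chromosome 19, 38244035 to 40285536, 2.04 Mb) and held 42 tested genes. Of these, 33 were higher in PANC1 than in each other line (78.6%) and none was lower. Of the 33, 3 (CAPN12, FBXO27 and ACP7) passed the filter only through PANC1. The median log2 differences over the 42 genes were 2.04 against A549, 3.28 against ES2 and 3.11 against MV3, where the medians of all genes were -0.01, -0.05 and 0.01. DNA copy number was not measured in these libraries.

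AKT2 (ENSG00000105221, chromosome 19, 40230317 to 40285536), a kinase downstream of PI3 kinase, closed the run at its right end. Its level was 141, 141 and 142 FPKM in PANC1 and 16.7 ± 1.53 in A549, 8.54 ± 0.0378 in ES2 and 12.3 ± 0.359 in MV3 (SD, n = 3). The log2 differences were 3.05, 3.97 and 3.47 against A549, ES2 and MV3, with 95% intervals of 2.93 to 3.17, 3.85 to 4.10 and 3.34 to 3.59 and limma adjusted p-values of at most 2.44e-11. The next tested gene to the right, C19orf47, was called against none of the 3 lines. PAF1 and SUPT5H act on the elongating RNA polymerase. SUPT5H was at 197, 195 and 197 FPKM in PANC1, against means of 32.4, 18.5 and 20.6 in A549, ES2 and MV3. PAF1 was at 409, 422 and 397 FPKM in PANC1, 13.6-fold, 18.00-fold and 11.2-fold higher than in A549, ES2 and MV3. As background, both AKT2 and PAF1 are known from a segment of chromosome 19 that is amplified in some pancreatic carcinomas.

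Other genes of the run serve very different ends. FBL, the methyltransferase of ribosomal RNA, was at 836, 820.1 and 762 FPKM in PANC1 against means of 79.9, 85.02 and 59.1 in A549, ES2 and MV3. PSMC4, an ATPase of the proteasome, was at 814, 868 and 724 FPKM against 94.1, 53.4 and 61.6. TIMM50, a subunit of the mitochondrial import channel, had a PANC1 mean of 222 FPKM and log2 differences of 3.21, 3.85 and 3.41 in the same order. DLL3, a Notch ligand, was at 49.8, 52.01 and 46.3 FPKM in PANC1 and 2.80 ± 0.177 in A549, 1.38 ± 0.259 in ES2 and 0.126 ± 0.0690 in MV3 (SD, n = 3). The kinases DYRK1B, MAP3K10 and PAK4 were at 38.4, 43.4 and 46.3 FPKM in PANC1, and PAK4 showed the smallest difference of these, 1.17 against A549. FBXO27, described above, also lies in the run, as does ACP7, which had no read in any other line and was at 7.58, 5.90 and 6.72 FPKM in PANC1. SPINT2, an inhibitor of surface proteases, opened the run at 122, 130.2 and 108 FPKM, 2.31-fold over A549. It overlaps PPP1R14A on the opposite strand, and the sources used here do not say whether reads were counted by strand, so the division between the pair is uncertain. On the deposited scale SPINT2, SIRT2 and PAK4 fell short of a 2-fold difference in 1 contrast each, with log2 differences of 0.92 to 0.96.

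Of the 9 tested genes of the run that were not called against every line, ACTN4 (actinin 4), PSMD8, HNRNPL and C19orf33 had positive differences in each contrast, though short of 2-fold in at least 1. SPRED3, a brake on RAS signalling, had negative differences in each (-0.70, -1.25 and -2.44). YIF1B, FAM98C, LRFN1 and GMFG made up the rest.

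**Figure D2:**
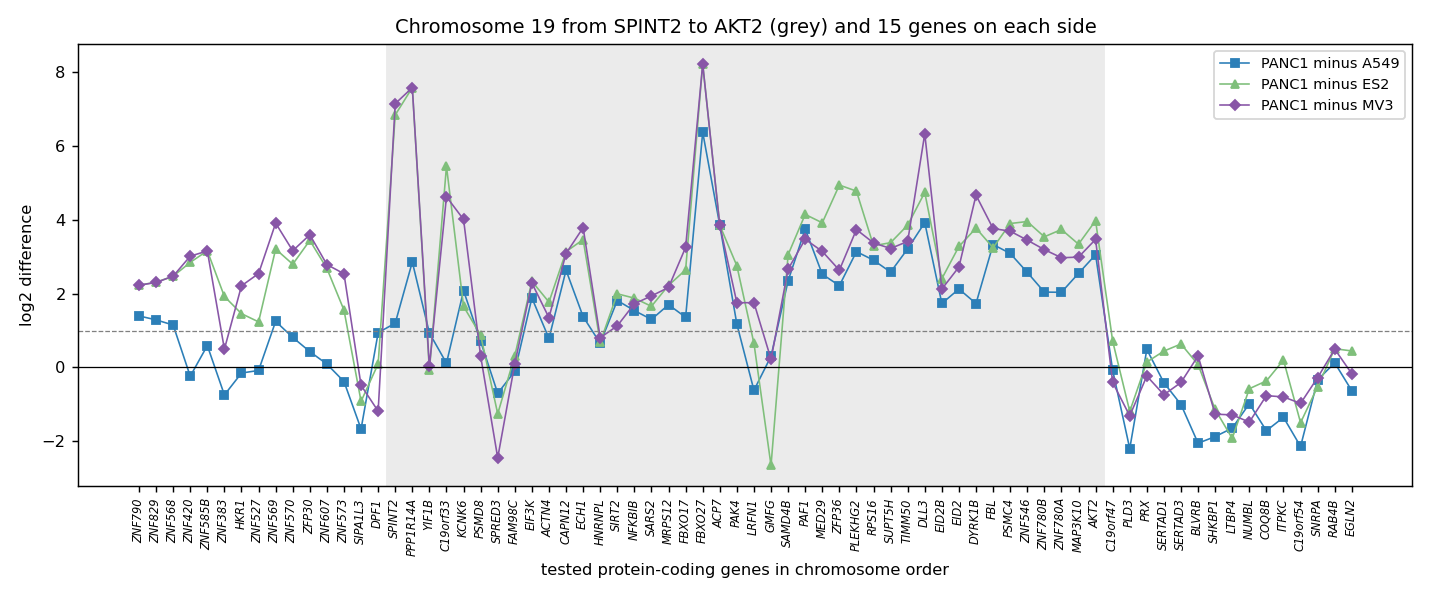
Log2 differences of PANC1 minus A549 (squares), ES2 (triangles) and MV3 (diamonds) for tested protein-coding genes in chromosome order, for the run from SPINT2 to AKT2 (grey) and 15 genes on each side; the dashed line marks 2-fold. From SAMD4B to AKT2 every difference lies above the dashed line, and at C19orf47, the next gene, all 3 lie below it.

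The other 2 runs held a smaller share of higher genes. From ZNF600 to CACNG6 (chromosome 19, 52749942 to 54012666), 12 of 18 tested genes were higher than in each line (66.7%), most of them zinc finger genes of the KRAB family at low levels. Of these 12, 9 passed the filter only through PANC1 and had to be higher. ZNF347 was at 5.23, 5.05 and 5.81 FPKM in PANC1 and ZNF677 was at 2.19, 2.001 and 2.62, and neither had a read in any other library. These genes are a cluster of similar copies, so that reads may be shared among them. With genes under a mean of 2 FPKM left out, only 1 of the 12 was tested and called. On chromosome X, in a run that ends at VBP1, 17 of 35 were higher (48.6%), and 3 of the 17 passed the filter only through PANC1. In this run L1CAM, a cell adhesion molecule of nerve growth, was at 83.7, 90.6 and 89.9 FPKM in PANC1 against means of 0.317, 0.0201 and 10.7 in A549, ES2 and MV3. No window held more than 8 genes lower than in each line. Together the 3 runs held 62 of the 589 higher genes (10.6%).

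Epithelial genes were next compared, with a list of 30 junction and keratin genes of which 21 were tested. Of these, 6 were higher in PANC1 than in each other line and none was lower, and 5 of the 6 passed the filter only through PANC1. The median difference over the list was 0.26 against A549, 3.05 against ES2 and 3.19 against MV3. The 6 were EPCAM, a surface adhesion protein, ESRP2, which directs epithelial splicing, the tight junction claudins CLDN3, CLDN4 and CLDN7, and KRT19. CLDN4 was at 21.4, 22.9 and 18.97 FPKM in PANC1 and 0.607 ± 0.0746 in A549, 0.188 ± 0.107 in ES2 and 0.0830 ± 0.0162 in MV3 (SD, n = 3). ESRP2 was at 9.55, 8.08 and 9.77 FPKM, and its highest level in another library was 0.138. KRT19 was 6.24-fold over A549 and at least 10604-fold over the level that 3 reads in ES2 would give. CLDN3 rested on a spread of 1.09, 3.52 and 1.04 FPKM, and its smallest difference, 1.51 ± 0.36 (SE), was against A549. EPCAM was at 4.06, 4.27 and 3.59 FPKM, 3.62-fold over A549.

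E-cadherin itself was lower in PANC1 than in A549. CDH1, its gene, was at 5.39, 5.23 and 4.50 FPKM in PANC1 and at 17.3 ± 0.388 in A549, 0 ± 0 in ES2 and 0.00340 ± 0.00590 in MV3 (SD, n = 3), a log2 difference of -1.69 against A549 and of 3.47 against ES2. The desmosome genes DSP and DSG2 were also lower than in A549 (-2.77 and -3.73), and so were ELF3 and CLDN1 (-1.93 and -1.40). The keratins divided: KRT8 and KRT18 had means of 793 and 222 FPKM in PANC1, above those of A549 at 479.9 and 152 but by less than 2-fold. KRT7 and KRT81 went the other way, at 3.18 and 1.68 FPKM in PANC1 against 374 and 956 in A549 and 104 and 297 in ES2. CRB3, which builds epithelial polarity, was at 0.0324 FPKM in PANC1 and 4.04 in A549.

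Repressors of the SNAI and ZEB families bind the letters CAGGTG, read on either strand as CAGGTG or CACCTG. Of the epithelial list, 13 genes had an entry among the RefSeq promoters (GRCh38.p14), and 8 of them (61.5%) held at least 1 such match in the 250 bases before a start. Of all 27305 genes in the table, 5635 (20.6%) held at least 1 in any of their entries. CDH1, EPCAM, KRT19 and ESRP2 had no entry. CLDN7, which was at 5.16, 7.81 and 6.35 FPKM in PANC1 and at most 0.0944 elsewhere, has 2 entries, of which 1 holds 4 matches and the other none. At least 4 matches were found in 0.122% of all 35116 entries. The cut-off of 4 was taken from the CLDN7 entry with more matches, so this share does not show that CLDN7 is unusual. The last 30 bases of the window with 4 matches are shown (minus strand, chr17:7262479-7262508), with both matches there in capitals.
CLDN7: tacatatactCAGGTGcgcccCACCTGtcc
A match is a description of the letters and not evidence of binding.

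Mesenchymal genes showed the reverse. Of 24 listed genes 21 were tested, 8 were lower in PANC1 than in each other line and none was higher. The medians were -1.37 against A549, -2.67 against ES2 and -2.83 against MV3. The transcription factors among the 8 were SNAI2, TWIST1, TWIST2 and ZEB2. SNAI2 had no read in PANC1, and its means were 2.85, 3.36 and 26.5 FPKM in A549, ES2 and MV3. TWIST1 had no read in PANC1 either, and its means were 0.821, 10.8 and 8.50 FPKM. ZEB2 was at 0.0124, 0.0205 and 0.0213 FPKM in PANC1 against 0.984, 2.79 and 2.08. ZEB1, its relative, was at 5.57, 4.93 and 6.38 FPKM in PANC1 and at 6.25 ± 0.486 in A549, 10.5 ± 0.196 in ES2 and 12.6 ± 0.778 in MV3 (SD, n = 3), a level that overlapped A549 and lay -1.10 from MV3. SNAI1, under the filter, was at 1.19, 1.67 and 0.789 FPKM in PANC1 and at most 0.558 in another library.

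The other 4 were FN1 and the matrix genes FBN1, TNC and LOX. FBN1 and TNC, which encode fibrillin and tenascin C, had PANC1 means of 0.0535 and 0.0467 FPKM and no mean under 3.03 elsewhere. LOX, the collagen cross-linking oxidase, was at 0.14, 0.739 and 0.0719 FPKM in PANC1 with a difference of -1.11 from A549, and it fell short of 2-fold there without A549 replicate 1 (-0.97) or without PANC1 replicate 1 (-0.98) or replicate 3 (-0.90). TWIST2 (-1.13 against A549) fell short without A549 replicate 2 (-0.98). Vimentin, by contrast, was abundant: VIM was at 623, 586 and 587 FPKM in PANC1, above A549 by 1.36 and below ES2 and MV3 by less than 2-fold. CDH2, which encodes N-cadherin, was at 15.2, 16.4 and 16.5 FPKM in PANC1 and 0.00816 in MV3. PANC1 thus held transcripts of E-cadherin, N-cadherin, vimentin and ZEB1 together, while those of fibronectin, SNAI2 and TWIST1 were at or near 0.

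**Figure D3:**
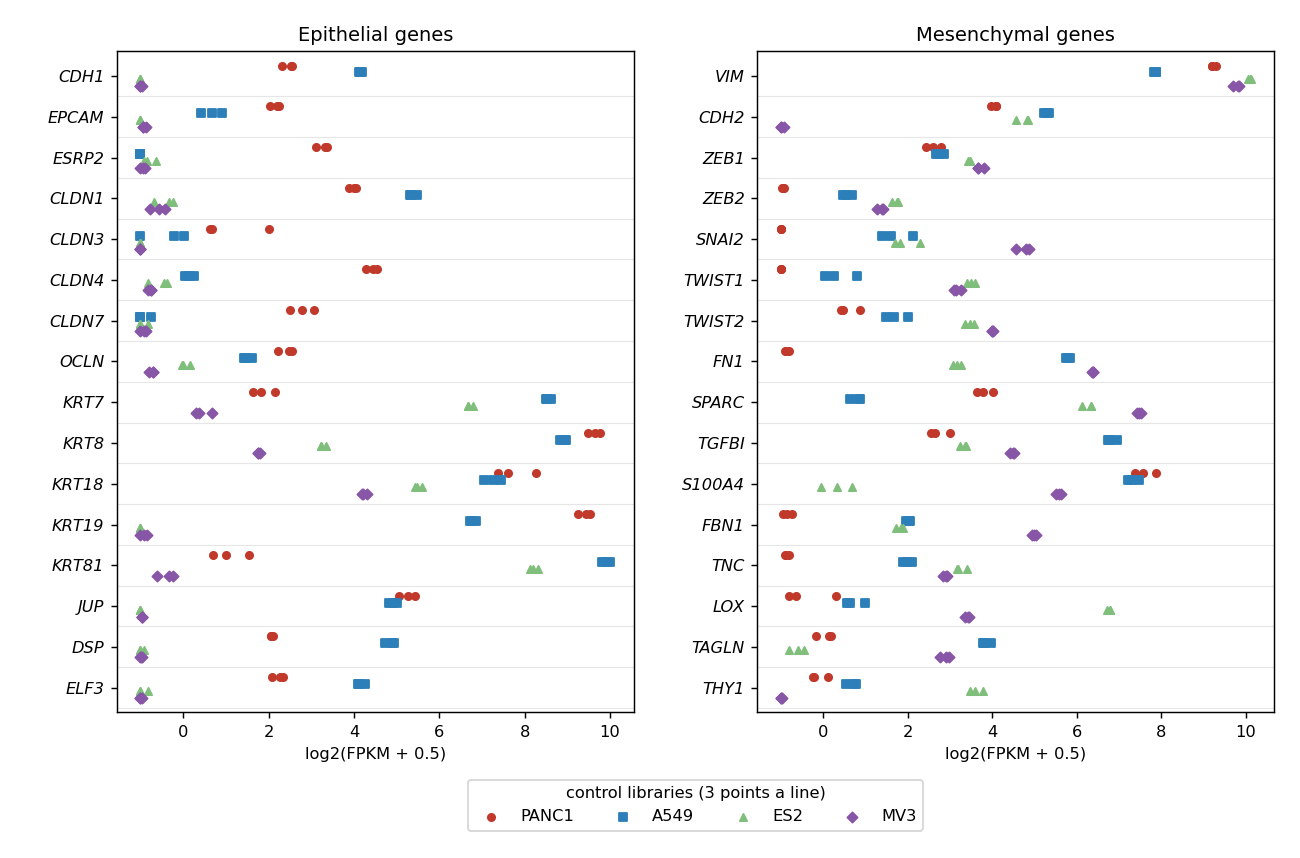
Levels of 16 epithelial (left) and 16 mesenchymal (right) genes as log2(FPKM + 0.5); each point is 1 control library, 3 a line. PANC1 lies beside A549 for KRT8, KRT18 and JUP, above every line for KRT19, CLDN4, CLDN7 and ESRP2, and at or near the floor of -1 (0 FPKM) for FN1, SNAI2, TWIST1 and TNC, where the other lines are not.

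Among 28 transcription factors of the pancreas 14 were tested. GATA4, which with GATA6 specifies the early pancreas, was higher in PANC1 than in each line, at 7.25, 6.26 and 6.58 FPKM against 1.17, 0 and 0.00473 in A549, ES2 and MV3. GATA4 passed the filter only through PANC1 and had to be higher. GATA6 went the other way and was lower than in each, at 0, 0.162 and 0.0337 FPKM against 1.21, 4.35 and 1.39. FOXA2, an endoderm pioneer factor, was at 4.05, 4.97 and 4.39 FPKM in PANC1 and differed from A549 by only 0.29. HNF4A and NR5A2, which drive digestive gene programmes, were lower than in A549, with log2 differences of -4.19 and -4.51. Pancreatic tumours are commonly divided into a classical and a basal-like class. Of 24 classical genes 3 were tested and none was called, and AGR2, a secretory protein disulfide isomerase, was the most abundant at 29.1, 28.5 and 25.8 FPKM in PANC1 against 19.04, 0 and 0. Of 24 basal-like genes 8 were tested, with KRT15 and CTSV higher and the glucose transporter SLC2A1 lower. Against A549, 5 of the 8 were lower and 2 higher. The medians were -2.94 against A549, 0.10 against ES2 and 0.28 against MV3. The 24 genes summed to 26.5 to 27.4 FPKM in PANC1, the lowest of the 4 lines. The sums were 458 to 493 in A549, 134 to 143 in ES2 and 42.4 to 46.3 in MV3. Both KRT15 and CTSV passed the filter only through PANC1 and had to be higher.

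Factors of other tissues were also found. MITF, the master regulator of melanocytes, was at 7.28, 7.80 and 8.19 FPKM in PANC1 and at 2.90 ± 0.166 in A549, 1.51 ± 0.0341 in ES2 and 0.305 ± 0.0211 in MV3 (SD, n = 3), with no overlap and the melanoma line lowest. The pigment genes TYR and SOX10 were at 0 in all 12 libraries. Of 16 melanocyte genes 5 were tested, and MITF was the only 1 called against every line. Of the 5, 4 were lower in PANC1 than in ES2 and 3 lower than in MV3, with 1 higher in each contrast. Their median differences were 0.01 against A549, -2.33 against ES2 and -2.92 against MV3. The 16 genes summed to 8.56 to 10.0 FPKM in PANC1, 4.45 to 5.23 in A549, 27.3 to 28.8 in ES2 and 36.8 to 39.2 in MV3. PAX2, a factor of kidney and Mullerian duct, was at 3.97, 3.82 and 4.20 FPKM in PANC1 and at most 0.0377 elsewhere, while PAX8 was at 0.0127 FPKM. Of 16 lung genes 2 were tested and neither was called.

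HOX genes mark the position of a tissue along the body axis, and 39 of them in 4 clusters were compared. Of 29 tested, 11 were higher in PANC1 than in each line, 3 of which passed the filter only through PANC1, and 2 were lower. Of the 11, 7 lay in the HOXC cluster on chromosome 12. The 9 HOXC genes summed to 116 to 117 FPKM in the PANC1 libraries, to 5.20 to 6.63 in A549, 13.1 to 14.1 in ES2 and 11.8 to 12.8 in MV3. HOXC13, at the end of the cluster, was at 44.8, 47.9 and 39.1 FPKM in PANC1 and 1.63 ± 0.529 in A549, 1.64 ± 0.32 in ES2 and 0.613 ± 0.241 in MV3 (SD, n = 3), and HOXC10 was at 26.9, 30.7 and 28.5 against means of 0.464, 0.91 and 4.23. HOXC12 was at 2.23, 2.19 and 2.39 FPKM in PANC1 and had no read in any other library. In the HOXB cluster 4 of 9 tested genes were higher (HOXB3, HOXB5, HOXB6 and HOXB8), and the cluster summed to 102 to 120.0 FPKM in PANC1 against 56.8 to 59.3 in ES2, the next highest line. The HOXD cluster was nearly silent in PANC1, with a sum of 0.466 to 1.03 FPKM against 3.44 to 3.54 in A549, 14.2 to 15.9 in ES2 and 14.7 to 15.04 in MV3. HOXD8 and HOXD9 were lower than in each line, and HOXD9 fell short of 2-fold against A549 without A549 replicate 1 (-0.96) or replicate 3 (-0.88). None of 8 tested HOXA genes was called against every line.

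**Figure D4:**
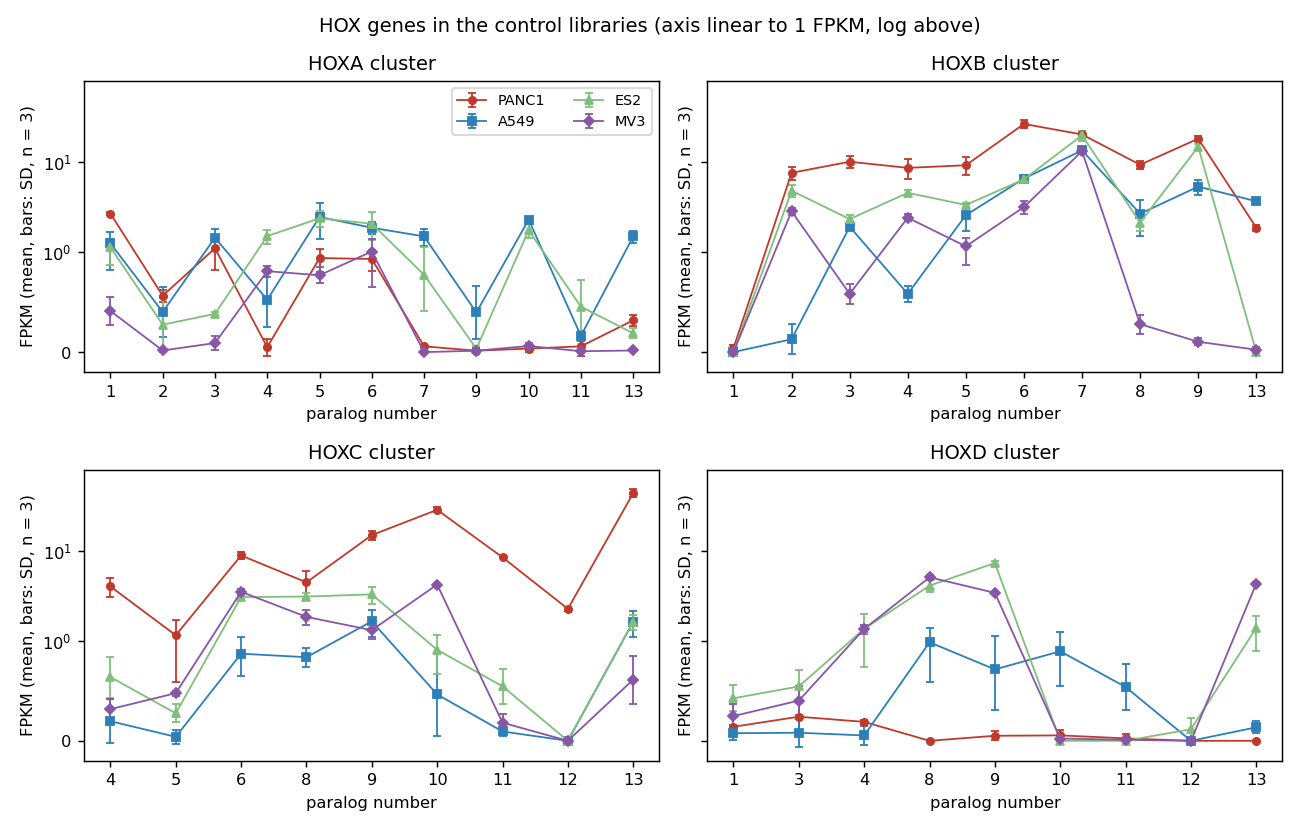
Mean levels of the HOX genes by cluster and paralog number in the 4 lines; bars are the SD of 3 control libraries and the axis is linear to 1 FPKM and logarithmic above. PANC1 lies above the other lines from HOXC9 to HOXC13 and at or near 0 from HOXD8 to HOXD13, where ES2 and MV3 peak at HOXD8 and HOXD9.

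Drivers of pancreatic carcinoma were examined as a list of 23 genes, 22 of them tested. AKT2 was the only 1 higher than in each line, and TGFBR2 and GATA6 were lower. CDKN2A, which encodes the p16 and p14ARF inhibitors on chromosome 9, had reads in 1 PANC1 library only, at 0.0592 FPKM on average, and CDKN2B had none. Their neighbour MTAP was at 0.0742, 0.131 and 0.127 FPKM. A549 shared this pattern, with means of 0.0177, 0 and 0.403 FPKM, while in ES2 the means were 40.3, 2.15 and 7.91 and in MV3 10.7, 2.71 and 2.63. SMAD4, the shared mediator of TGF-beta signals, was at 3.38, 3.92 and 3.89 FPKM in PANC1 against means of 4.26, 3.82 and 4.91, a difference under 2-fold in each contrast. TGFBR2, the type II receptor upstream of SMAD4, was lower than in each line, at 17.9, 16.7 and 17.5 FPKM against 89.5 ± 1.78 in A549, 37.4 ± 0.395 in ES2 and 60.3 ± 1.36 in MV3 (SD, n = 3). Its difference from ES2, -1.08, was -0.91 on the scale of a common sum.

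Of 21 genes of the RAS and MAP kinase core none was called against every line, and their median differences were 0.07, 0.26 and -0.12 against A549, ES2 and MV3. HRAS was at 20.5 FPKM in PANC1 on average, between ES2 (9.39) and MV3 (25.3). NRAS was at 45.7, 39.2 and 36.9 FPKM and lay above every other library (highest 30.4), by less than 2-fold against ES2 and MV3. Of 24 genes that report ERK output, 5 were lower than in each line, and SPRY1, an inhibitor of receptor signalling, was the only 1 higher, at 8.56, 9.28 and 8.42 FPKM against 1.34, 1.86 and 1.26. DUSP4, a phosphatase that is induced by ERK and acts back on it, had a read in 1 PANC1 library only and was at 48.1 ± 0.689 in A549, 3.32 ± 0.266 in ES2 and 16.2 ± 0.33 in MV3 (SD, n = 3). Of the ETS factors downstream of ERK, ETV1 was at 0.226, 0.293 and 0.207 FPKM in PANC1 against means of 1.81, 7.24 and 5.17, and ETV4 was at 2.19, 1.88 and 1.40 against 7.31, 9.52 and 9.39. EREG, a ligand of the EGF receptor, was at 1.33, 1.32 and 1.42 FPKM against 27.95, 5.82 and 15.5, and EPHA4 completed the 5. The medians of the list were 0.30 against A549, -1.38 against ES2 and -0.64 against MV3.

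Among 37 receptor tyrosine kinases 24 were tested, 5 were higher than in each line and EPHA4 was lower. Of the 5, 2 passed the filter only through PANC1. MST1R, the receptor of macrophage-stimulating protein, was at 4.84, 3.93 and 4.81 FPKM in PANC1 and 0.375 ± 0.102 in A549, 0.00888 ± 0.0154 in ES2 and 0.156 ± 0.0389 in MV3 (SD, n = 3). MERTK, which clears apoptotic cells, was at 5.04, 5.04 and 6.17 FPKM against 0.379, 0.852 and 0. PTK7, a WNT co-receptor, was at 26.8, 26.5 and 27.2 FPKM, with a smallest difference of 2.52, against MV3. ROR1, also a WNT co-receptor, was at 11.7, 11.7 and 12.2 FPKM, and its difference from A549 was 1.16 on the common and 0.93 on the deposited scale. EPHB4, a receptor for ephrin-B2, was at 42.1, 42.5 and 40.1 FPKM against 14.7, 9.18 and 16.2. EGFR and MET were at 32.03 and 46.4 FPKM in PANC1, and neither differed from any line by 2-fold. AXL was at 76.1, 73.6 and 73.3 FPKM against means of 62.4, 278 and 265, a log2 difference of 0.25 from A549 and -1.90 from ES2.

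In developmental pathways a few ligands, receptors and targets were called. The shares higher and lower were 22.2% and 5.56% for Notch and Hedgehog genes and 8% and 4% for WNT genes. They were 2.44% and 12.2% for TGF-beta and BMP genes and 0% and 9.09% for YAP and TEAD targets. Of all tested genes 4.91% were higher and 3.85% lower. Of 27 Notch and Hedgehog genes 18 were tested, with 4 higher than in each line (DLL3, HES4, NRARP and SHH) and MAML2, a Notch coactivator, lower. Of the 4, 2 passed the filter only through PANC1. SHH (chromosome 7, 155799980 to 155812463), the Sonic hedgehog ligand, was at 10.4, 10.9 and 10.7 FPKM in PANC1 and 0.828 ± 0.166 in A549, 0 ± 0 in ES2 and 0 ± 0 in MV3 (SD, n = 3), and it was at least 358-fold and 875-fold higher than 3 reads over the ES2 or MV3 libraries would give. The receptor component SMO was at 0.0821 FPKM in PANC1 against 9.92, 1.25 and 0, and GLI1, a target of Hedgehog signals, was at 0.3 against 4.21, 0.0358 and 0.152. PANC1 thus held the ligand while SMO and GLI1 were low, with log2 differences of -4.16 (SMO) and -2.57 (GLI1) from A549. The mean of SMO was lower still in MV3, and that of GLI1 in both ES2 and MV3. Of 41 WNT genes 25 were tested, and the ligand WNT9A and the receptor FZD4 were higher while the receptor FZD8 was lower (-3.37, -2.46 and -3.91). In the TGF-beta and BMP pathway, INHBB, the activin B subunit, was the only 1 of 41 tested genes higher than in each line, at 27.6, 25.4 and 25.9 FPKM against 0.572, 0.0146 and 0. INHBB passed the filter only through PANC1 and had to be higher. FST, which binds and neutralises activin, was lower than in each, at 0.209, 0.0431 and 0.134 FPKM against 1.40, 25.4 and 1.51, together with BMP1, BMP2, LTBP4 and TGFBR2. Of 22 YAP and TEAD target genes 2 were lower (CCDC80 and RBMS3), and none of 18 components was called.

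Cytokine and stress genes were mixed. Of 25 tested NF-kB and cytokine genes 5 were lower than in each line, namely the chemokines CXCL2, CXCL3, CXCL5 and CXCL8 and the cytokine IL1B. CXCL8 was at 2.86, 2.14 and 1.11 FPKM in PANC1 and 96.3 ± 13.8 in A549, 56.3 ± 5.54 in ES2 and 16.2 ± 0.653 in MV3 (SD, n = 3). IL1B had no read in PANC1 and was low elsewhere (0.55, 1.54 and 0.576), and it fell short of 2-fold without A549 replicate 3 (-0.80) and, narrowly, without MV3 replicate 2. CSF1, the growth factor of macrophages, and the monocyte chemokine CCL2 were higher. In PANC1 CSF1 was at 26.9, 28.4 and 25.8 FPKM and CCL2 at 34.9, 39.4 and 31.7. CCL2 differed from A549 by 1.07, and by 0.99 without PANC1 replicate 2. Of 27 interferon-stimulated genes 3 were lower (IFI44, IFI44L and IFI16), and MX2, which restricts viruses, was higher, at 3.60, 3.15 and 2.90 FPKM against 0.109, 0 and 0.0360. MX2 passed the filter only through PANC1 and had to be higher. NLRC5, the activator of MHC class I genes, was lower than in each line (-1.90, -1.56 and -2.47), and none of the other 14 tested genes of that pathway was called.

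In metabolism, ADM, the hypoxia-induced peptide adrenomedullin, was at 85.4, 82.01 and 83.2 FPKM in PANC1 against 4.96, 0 and 30.7, the only 1 of 34 hypoxia and glycolysis genes higher than in each line. The glucose transporters were lower: SLC2A1 was at 7.22, 7.57 and 7.80 FPKM against means of 26.7, 27.2 and 34.9, and SLC2A3 was at 0, 0.0208 and 0.0216 against 12.01, 5.11 and 3.33. NDRG1, PFKFB3 and P4HA2 were lower as well. P4HA2 differed from ES2 by -1.04 and fell short of 2-fold there on the common-sum scale (-0.89) and in 2 of the fits without 1 library (ES2 replicate 1, -0.99, or PANC1 replicate 2, -0.98). HMOX1, the haem oxygenase, was the only 1 of 23 NRF2 targets higher than in each line (1.63, 4.38 and 3.15), and 2 were lower. Against A549, 17 of the 23 were lower in PANC1 and 1 higher. The medians of the list were -1.48 against A549, -0.07 against ES2 and 0.08 against MV3. AKR1C3, an aldo-keto reductase, ranged from 0.0388 FPKM in PANC1 to 308 in A549. None of 26 proliferation genes and none of 24 G1 cell cycle genes was called against every line, and the proliferation medians were 0.33, -0.30 and -0.27.

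Of 18 tested collagens 5 were lower than in each line (COL4A5, COL4A6, COL5A1, COL12A1 and COL27A1), and COL18A1, a basement membrane collagen, was higher, at 132, 135 and 138 FPKM against 35.4 ± 1.95 in A549, 8.46 ± 0.176 in ES2 and 3.81 ± 0.247 in MV3 (SD, n = 3). Of 21 tested proteases and inhibitors 5 were lower, among them PLAUR, the urokinase receptor, at 0.556, 0.661 and 0.746 FPKM against 9.29, 24.9 and 20.04, and PLAT, the tissue plasminogen activator, at 0.0702, 0.755 and 0.0402 against 1.30, 102 and 3.80. The integrin ITGB3 was higher (2.14, 1.90 and 2.58), whereas ITGA1 (-1.17, -2.20 and -1.65) and the laminin chain LAMB3 (-3.55, -6.06 and -2.53) were lower. ITGB3 passed the filter only through PANC1 and had to be higher. CAV2 was the only called gene of 8 in the caveola list, with a smallest difference of 1.19, which was 0.96 on the deposited scale.

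**Figure D5:**
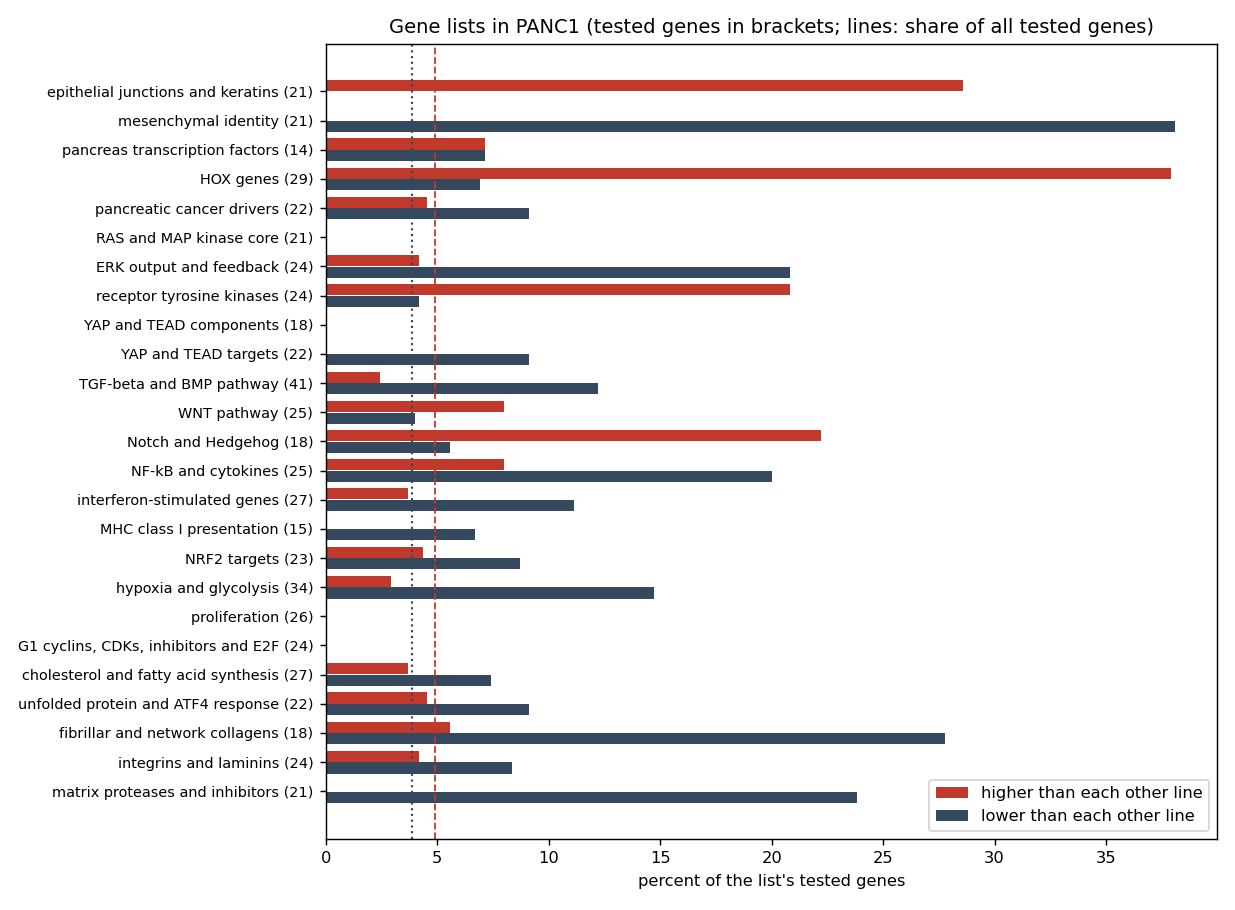
Share of the tested genes of lists with at least 14 tested genes that were higher (red) or lower (blue) in PANC1 than in each of A549, ES2 and MV3; the number tested is in brackets and the lines mark the shares of all tested genes, 4.91% (dashed) and 3.85% (dotted). The red bars are longest for the HOX, epithelial, Notch and Hedgehog and receptor kinase lists, where 3 of 11, 5 of 6, 2 of 4 and 2 of 5 higher genes passed the filter only through PANC1; blue bars are longest for the mesenchymal, collagen, protease, ERK output and cytokine lists, and RAS core, YAP component, proliferation and G1 lists show no bar.

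The target of the study's knockdown was present in the PANC1 control libraries. IGF2BP1 (ENSG00000159217, chromosome 17, 48997385 to 49056145) was at 12.5, 12.3 and 12.3 FPKM in PANC1 and at 37.3 ± 0.0696 in A549, 13.2 ± 0.92 in ES2 and 8.83 ± 0.281 in MV3 (SD, n = 3). PANC1 differed little from ES2 (log2 difference -0.09, 95% interval -0.20 to 0.02), 3.02-fold less than A549 and 1.40-fold more than MV3. Its paralog IGF2BP2 was at 18.4, 19.7 and 19.6 FPKM, between A549 (9.44) and ES2 (29.4), and IGF2BP3 was at 17.2, 14.9 and 18.1, between A549 (13.5) and MV3 (19.9). None of 7 tested oncofetal genes was called against every line.

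The libraries treated with the siRNA pool against IGF2BP1 gave a repeat of the same contrasts in libraries that the calls did not use. There 465 of the 589 higher genes (78.9%) and 370 of the 461 lower genes (80.3%) were called again, out of 695 higher and 567 lower genes among 12076 tested. Genes of the text that were not called again against every line included EPCAM (0.59 against A549), ROR1 (0.43 against A549), CSF1 (0.53 against MV3), CAV2 (0.09 against ES2) and ITGB3 (0.22 against ES2). The knockdown itself differs between the groups of this repeat and the main libraries, so that its effect and the spread between libraries cannot be told apart there.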

How the data were processed

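Total RNA of 24 libraries (4 lines, 3 replicates per group) was depleted of ribosomal RNA and sequenced paired-end with a directional kit. Per the labels and the study's methods, the authors trimmed reads with cutadapt 1.14, mapped them to hg38 with HISAT2 2.1.0 and SAMtools 1.5, counted them with featureCounts 1.5.3 on the Ensembl annotation and normalised each line's table separately with edgeR 3.30.3. The strand setting of the counting is not given in the sources used here. The deposited values are FPKM per gene and library, with gene length. The authors' own comparisons in the same tables (log2 fold changes, p-values and adjusted p-values) were not used. Whole reads were recovered from the FPKM values (100% within 0.01 of a whole number). The deposited FPKM of the 12 control libraries were rescaled to the same median over 8866 protein-coding genes. Genes of every biotype with a mean of at least 0.5 FPKM were fitted with limma 3.58.1 (R 4.3.3, trended, two-sided) on log2(FPKM + 0.5), with Benjamini-Hochberg adjustment over all 17969 genes per contrast. Calls needed an adjusted p under 0.05 and a 2-fold difference. The scripts were tested on simulated data. Replicates are biological per the study's methods. Coordinates are from GENCODE (hg38). Named were IGF2BP1 to IGF2BP3, the 15 genes with the largest smallest-of-3 difference in each direction (at least 1 FPKM in PANC1, or in each other line), list members that were called, and members that define a lineage, driver or pathway. The runs of neighbours, and genes named from them, were chosen after their values were seen. Members and lists were chosen with earlier results of these data known. A fold against a group without reads is a bound set by 3 reads over its 3 libraries. Alternatives were other scalings, pseudocounts (0.1 and 1), filters, voom on recovered reads, thinned reads, a replicate block, fold minimums and fits without each library. Other tools were Python 3.11.15, pandas 2.3.3, numpy 2.4.6 and matplotlib 3.10.9. Genes of the Y chromosome and XIST were left out of the text. Some genes are not reported here.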

Additional observations from a re-analysis of the deposited data

How the results depend on the processing

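Of 582 differences of named genes, none changed its direction among those tested under another setting; 117 were not tested with a filter at a mean of 2 FPKM, 15 to 18 without a PANC1 library, 3 on the deposited scale and 6 in the libraries treated against IGF2BP1. Many of these genes were named because they were called, so with the same libraries a change of direction was unlikely. Its absence is no further support for the calls. Of the 582, 6 fell short of the threshold with a common sum, 12 on the deposited scale and 22 with a pseudocount of 1. The counts of higher and lower genes followed the fold minimum most. At 4-fold, 217 genes were higher and 97 lower than in each line, with 420 and 724 against A549, 686 and 656 against ES2 and 760 and 514 against MV3. With no fold minimum the counts were 1976 and 1977, and 4337 and 4543, 4195 and 4694, and 4565 and 4384 in the same order. With voom on the recovered reads 705 genes were higher and 705 lower than in each line. The run from SPINT2 to AKT2 held 21 higher genes at 4-fold. The run from ZNF600 to CACNG6 held 1 with a filter at a mean of 2 FPKM, since fewer of its genes were then tested, and the run on chromosome X held 6 at 4-fold and 28 with no fold minimum. With 1 library left out at a time, 550 to 607 genes were higher and 457 to 472 lower than in each line. The ranges were 1372 to 1493 and 1827 to 1940 against A549, 1642 to 1735 and 1704 to 1780 against ES2, and 1809 to 1899 and 1545 to 1609 against MV3. The runs held 33, 8 to 13 and 16 to 17 higher genes. The count of 8 was for the run from ZNF600 to CACNG6 without PANC1 replicate 3. The replicate numbers are shared across lines, but same-numbered samples did not deviate together (correlations of -0.19 to 0.27), so they were not taken as pairs; with the replicate number as a block, 589 genes were again higher and 461 lower. No setting separates line, harvest time and table. Depth limits genes near 0, since 1 read is worth more FPKM in A549, the shallowest line, than in MV3.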

Other observations

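Other gene groups were compared in the same way. Of 9 tested endocrine and neuroendocrine genes, SYP, which encodes the vesicle protein synaptophysin, was higher in PANC1 than in each line, at 1.96, 1.25 and 1.48 FPKM against means of 0.33, 0.125 and 0.157 in A549, ES2 and MV3, and UCHL1 was lower. SYP passed the filter only through PANC1 and had to be higher. Of 27 cholesterol and fatty acid genes, 1 was higher than in each line, and SCD5 and ELOVL6 were lower. The medians of the list were 0.49 against A549, 0.16 against ES2 and 0.34 against MV3. In the unfolded protein list of 22 genes, DDIT3 was higher (1.54, 1.34 and 1.15), while HERPUD1 and VLDLR were lower. MAX, the partner of MYC, was the only called gene of 10 in the MYC network and was lower, at 4.90, 3.21 and 3.75 FPKM against 10.2, 9.45 and 14.6. S100A16 was the only called gene of 9 tested S100 proteins, and was lower (-1.35, -2.57 and -3.10). None of 9 tested cancer-testis genes and none of 3 tested mucins was called against every line. Of 15 duct genes 9 were tested and KRT19 was the only gene called against every line. Against A549 alone 6 of the 9 were lower in PANC1 and 2 higher, with a median difference of -2.32, while the medians were 0.74 against ES2 and 0.77 against MV3.

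Long intergenic RNAs were tested beside the protein-coding genes. Of 853 tested, 24 (2.81%) were higher in PANC1 than in each line and 41 (4.81%) were lower. Among those higher was LINC00665, at 4.002, 3.66 and 4.19 FPKM against means of 0.343, 0.366 and 0. It passed the filter only through PANC1 and had to be higher. Among those lower was LINP1, at 0, 0.14 and 0 FPKM against 11.2, 47.95 and 10.6. The reads of such genes may be shared with genes that overlap them.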
